A study of Mus musculus with 20 samples.

Results

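The 7 chemokine genes Ccl1, Ccl3, Ccl4, Ccl5, Ccl9, Cxcl10 and Xcl1 were followed in cultured mouse CD8+ T cells. They were picked by name among the 23992 gene symbols listed, and each had a single transcript in the tables. The RNA came from splenic CD8+ T cells of wild-type C57BL/6J mice 6 to 8 weeks old, isolated by negative selection. All cells, the unstimulated ones included, had been activated for 48 h with antibodies to CD3 and CD28 and rested overnight. They then received murine interleukin-21 (mIL-21), the designed IL-21 mimic 21h10, or no cytokine, for 24 h. Experiment 1 held 100 pM and 1 nM of each cytokine, and experiment 2 held 10 nM and 100 nM. Each experiment had its own unstimulated cells, and each of its 5 groups had 2 libraries (n = 2 throughout). Low and high doses were never in the same experiment, so dose range and experiment cannot be told apart. The labels call the libraries of a group duplicates, and although the study's methods speak in general of independent preparations, nothing ties a library to a mouse or culture; p-values therefore measure the spread between these libraries.

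Chemokines are small secreted proteins that guide leukocytes along gradients by way of receptors that couple to G proteins. Activated CD8+ T cells are a well-known source of Ccl3, Ccl4 and Ccl5, which attract T cells and myeloid cells, and of Xcl1, which calls in cross-presenting dendritic cells that carry Xcr1. Cxcl10, the interferon-inducible ligand of Cxcr3, draws in activated T cells, Ccl1 is the ligand of Ccr8, and Ccl9 is a ligand of Ccr1. IL-21 is a cytokine of CD4+ helper T cells that signals through the common gamma chain and, in CD8+ T cells, mainly through STAT3.

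Reads on genes numbered 36824740 to 94070730 per library in experiment 1 and 27072917 to 43300094 in experiment 2. All 5 CD8 T cell markers (Cd8a, Cd8b1, Cd3d, Cd3e, Cd3g) were high, with a lowest value of 101.8 RPKM (reads per kilobase of transcript, scaled to the mapped reads of the library) in any library. S100a8 and S100a9, which mark neutrophils, had 0 reads in every library, and the monocyte markers Csf1r and Cd14 had at most 2 and 6 reads. Among monocyte or macrophage markers, 5 of 6 had values; their sum ran from 0.194 to 0.277 RPKM in unstimulated cells of experiment 1 and from 6.44 to 16.6 RPKM in the cytokine groups of experiment 2. Nearly all of that sum was Itgam, which ranged from 0.119 to 16.6 RPKM and which effector CD8+ T cells also express. The sum was higher in every treated library than in the unstimulated ones of its experiment, also at 100 pM of mIL-21, where Ccl4 and Ccl9 were lower, and its part in their values was not tested. The 5 dendritic cell markers summed to 0.722 to 7.58 RPKM per library with Clec9a at 0 to 2 reads, and the 5 B cell markers to 3.09 to 10.5 RPKM. The 3 NK cell markers summed to 4.46 to 43.97 RPKM, nearly all of it Eomes, with the highest sums at 100 nM of 21h10, where Ncr1 was at 0. The 3 CD4 T cell markers reached at most 1.55 RPKM, the 4 mast cell or basophil markers at most 1.78 RPKM and the 3 neutrophil markers at most 0.223 RPKM. In such bulk RNA, fewer cells making a chemokine and less of its RNA per cell cannot be told apart.

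Read counts were tested with edgeR's quasi-likelihood test over all genes kept by a filter on low counts, 13974 in experiment 1 and 13772 in experiment 2, and a gene is called changed at a Benjamini-Hochberg adjusted p under 0.05. Unless another tool is named, adjusted p-values are from that test, intervals in brackets are 95% intervals of a log2 fold change, and levels are the deposited RPKM. All 7 chemokines passed the filter in experiment 1. In experiment 2, Ccl1 did not, with at most 3 reads in any library, and 6 were tested.

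**Figure D1:**
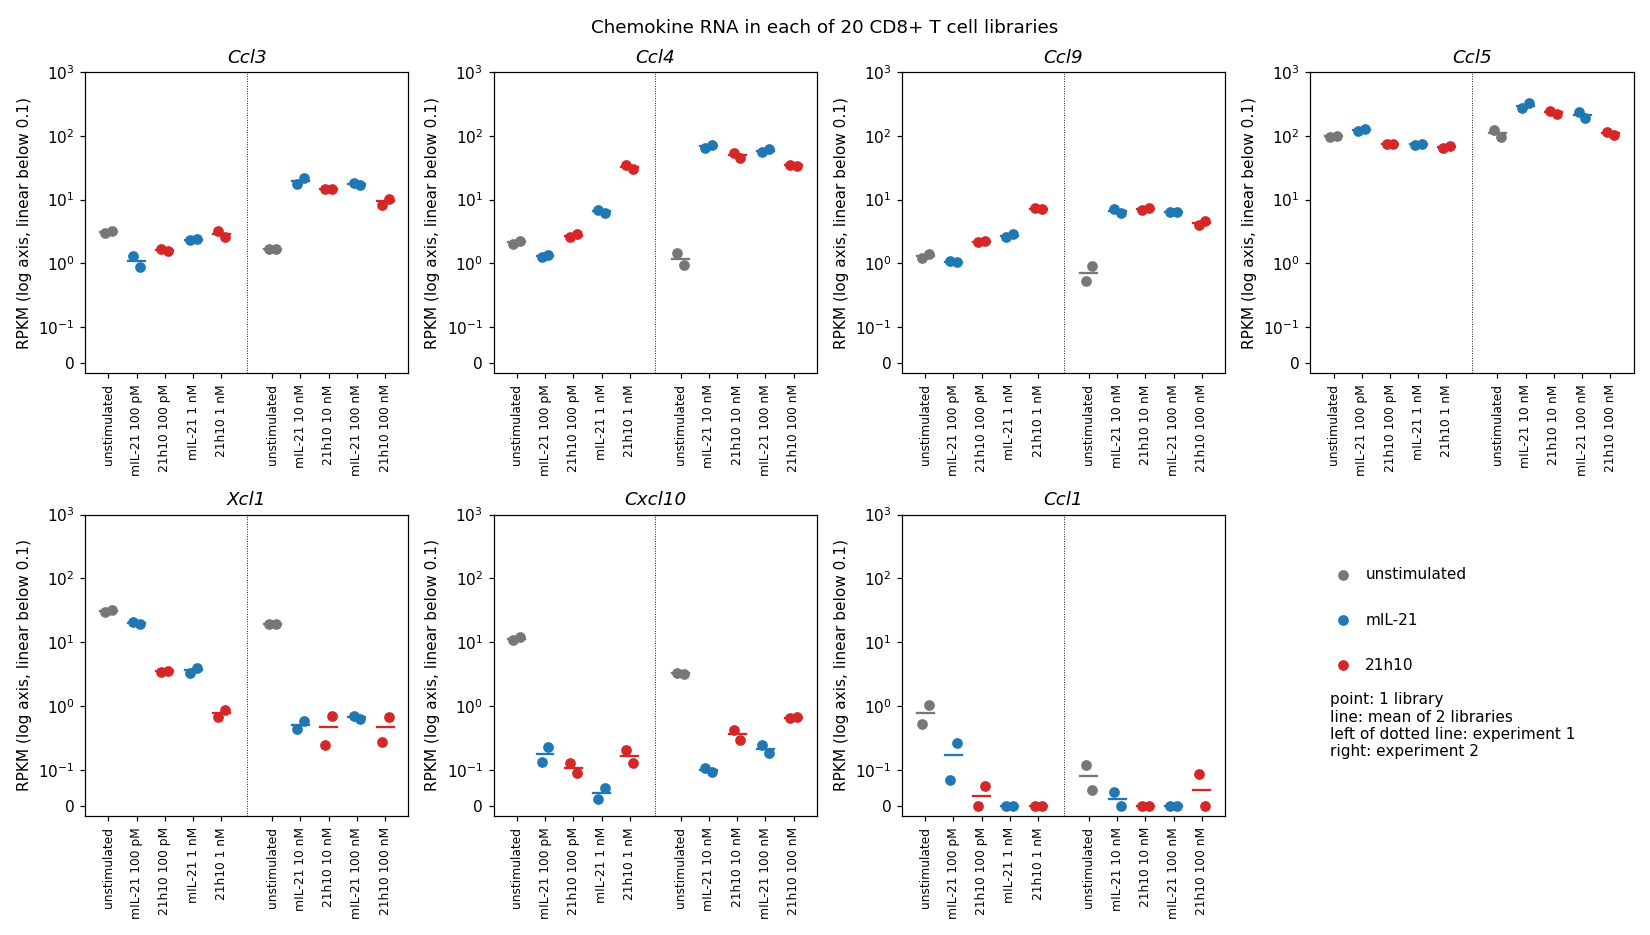
RPKM of the 7 chemokine genes (log axis, linear below 0.1) in each of the 20 libraries, by group, with experiment 1 left and experiment 2 right of the dotted line. Points are libraries and lines the mean of 2. In experiment 1, Ccl4 and Ccl9 climb from 100 pM to 1 nM of each cytokine, but lie below unstimulated cells at 100 pM of mIL-21. Xcl1 steps down there, and Cxcl10 lies below 1 RPKM in every library with cytokine.

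The 7 genes lay on 3 chromosomes (build GRCm38). Ccl5, Ccl9, Ccl3 and Ccl4 sat within 138.9 kb of chromosome 11. Ccl5 (RefSeq NM_013653, 3 exons) ran from 83525778 to 83530518, Ccl9 (NM_011338, 4 exons) from 83572919 to 83578636 and Ccl3 (NM_011337, 3 exons) from 83647844 to 83649355, all on the minus strand. Ccl4 (NM_013652, 3 exons) ran from 83662584 to 83664683 on the plus strand. Ccl1 (NM_011329, 3 exons) was farther off on the same chromosome, at 82176657 to 82179812, Cxcl10 (NM_021274, 4 exons) on chromosome 5 at 92346638 to 92348882, and Xcl1 (NM_008510, 3 exons) on chromosome 1 at 164931644 to 164935527, each on the minus strand. Art3 overlaps 12.2% of the exonic bases of Cxcl10 and Gm20743 overlaps 18.7% of those of Xcl1, both from the opposite strand. Whether reads were counted by strand is not given in the sources used here, so reads from these stretches cannot be assigned to 1 strand. No other gene shared a stretch of over 85% identity with Ccl1, Ccl3, Ccl4 or Ccl5, and for Ccl9, where 422 genes held such a stretch, the longest was 247 bases, or 8.22% of its transcript.

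Of the 7 genes, 5 had an entry among RefSeq promoters (GRCm38.p6): Ccl1, Ccl3, Ccl9, Cxcl10 and Xcl1. The proximal promoters of Cxcl10 and Ccl9 are shown because among the 5 they alone held a motif searched. The 250 bases before the start were searched on both strands for TTCNNNGAA (the STAT site, GAS), the interferon-stimulated response element (ISRE: GAAA, any 2 bases, GAAA), the NF-kB site (GGG, any 2 bases, TT, any base, CC) and TGANTCA (AP-1), where N is any base. Matches are in capitals, and none of them overlap.

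Cxcl10, chr5:92348890-92349139, minus strand: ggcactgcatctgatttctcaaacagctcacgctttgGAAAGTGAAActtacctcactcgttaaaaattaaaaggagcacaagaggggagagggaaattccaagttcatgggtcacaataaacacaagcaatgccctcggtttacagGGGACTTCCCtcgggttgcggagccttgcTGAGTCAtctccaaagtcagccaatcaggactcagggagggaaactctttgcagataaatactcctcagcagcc

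Ccl9, chr11:83578637-83578886, minus strand: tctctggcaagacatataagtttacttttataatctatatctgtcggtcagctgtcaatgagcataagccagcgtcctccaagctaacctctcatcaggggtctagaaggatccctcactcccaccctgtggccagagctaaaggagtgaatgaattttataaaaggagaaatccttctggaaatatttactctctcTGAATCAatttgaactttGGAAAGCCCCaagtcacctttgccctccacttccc

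The Cxcl10 promoter held 1 match each to ISRE, NF-kB and AP-1, beginning 213, 103 and 74 bases before the start. The Ccl9 promoter held AP-1 and, on the other strand, NF-kB, beginning 53 and 35 bases before the start. In the other 3 windows these letters were not found, and GAS was found in none of the 5. Over all 27025 promoters of this length, 7.18% held GAS, 3.04% ISRE, 4.0% NF-kB and 6.87% AP-1. A match is a description of the sequence and not a bound site.

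Against unstimulated cells, most of the 7 chemokines were called in each treated group of experiment 1, and so were most genes. With 100 pM of mIL-21, 7 of 7 were called (1 higher and 6 lower), beside 77.7% of all genes (38.3% higher and 39.4% lower). At 1 nM, 6 of 7 were called (2 higher and 4 lower), beside 80.1% (39.9% and 40.3%). With 100 pM of 21h10, 7 of 7 were called (2 higher and 5 lower), beside 81.6% (40.2% and 41.3%). At 1 nM, 6 of 7 were called (2 higher and 4 lower), beside 80.3% (38.3% and 42.1%). In experiment 2 each treated group gave calls for all 6 tested, 4 higher (Ccl3, Ccl4, Ccl5 and Ccl9) and 2 lower (Cxcl10 and Xcl1), with an exception for Ccl5 after the highest dose of 21h10 given below. Beside them, 46.2% of all genes were called with 10 nM of mIL-21 (22.5% higher and 23.7% lower) and 46.2% at 100 nM (22.5% and 23.7%). With 21h10 it was 50.1% at 10 nM (25.2% and 24.9%) and 50.8% at 100 nM (25% and 25.8%). So large a share of genes was called that the counts alone say little about chemokines, and their sizes and directions are described next. Treated groups of an experiment share its unstimulated libraries.

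**Figure D2:**
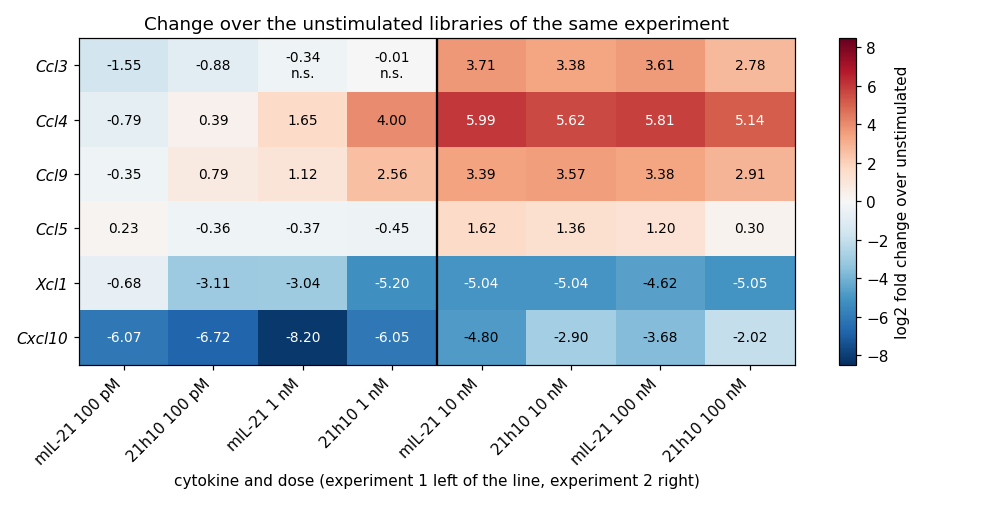
Log2 fold change of 6 chemokines (rows) in each treated group (columns) over the unstimulated libraries of the same experiment, from edgeR's fit of read counts; n.s. marks an adjusted p of 0.05 or more. Ccl4 runs from -0.79 at 100 pM of mIL-21 to 5.99 at 10 nM of mIL-21, and all Xcl1 and Cxcl10 values are negative.

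Ccl4, also known as MIP-1 beta, moved over the widest range upward. In experiment 1 the unstimulated libraries had 2.01 and 2.29 RPKM, those with mIL-21 1.26 and 1.34 at 100 pM and 6.99 and 6.09 at 1 nM, and those with 21h10 2.62 and 2.85 at 100 pM and 34.6 and 29.9 at 1 nM. The 5 groups did not overlap, with mIL-21 at 100 pM lowest and 21h10 at 1 nM highest. Against unstimulated cells the log2 fold change was -0.79 (adjusted p = 6.03e-04) and 1.65 (1.24e-09) for the mIL-21 doses, and 0.39 (0.0126) and 4.0 (5e-16) for the 21h10 doses. The smallest of these, 0.39, was 0.30 without unstimulated replicate 1 and 0.36 without 21h10 100 pM replicate 2, and then no longer passed the threshold. In experiment 2 the unstimulated libraries had 1.46 and 0.934 RPKM. With mIL-21 they had 63.3 and 72.7 at 10 nM and 54.8 and 61.1 at 100 nM, and with 21h10 54.1 and 44.3 at 10 nM and 34.6 and 34.2 at 100 nM. All 8 treated libraries stood far above the unstimulated ones, and the 21h10 100 nM pair was the lowest of the treated groups. The rise over unstimulated cells was 63.8-fold and 56.1-fold for mIL-21 and 49.1-fold and 35.1-fold for 21h10, at the lower and the higher dose (log2 5.99, 5.81, 5.62 and 5.14).

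Ccl9, a CC chemokine also called MIP-1 gamma, followed the order of Ccl4 in experiment 1. Unstimulated libraries had 1.21 and 1.39 RPKM, mIL-21 1.08 and 1.06 at 100 pM and 2.61 and 2.85 at 1 nM, and 21h10 2.17 and 2.22 at 100 pM and 7.28 and 7.11 at 1 nM. No groups overlapped, and 21h10 at 1 nM was again highest. The log2 fold change over unstimulated cells was -0.35 (adjusted p = 0.00736) and 1.12 (4.44e-09) for mIL-21, and 0.79 (3.38e-07) and 2.56 (1.16e-14) for 21h10. The decrease at 100 pM of mIL-21 was -0.29 and no longer called without unstimulated replicate 2. In experiment 2 the unstimulated values were 0.531 and 0.908 RPKM and the treated ones 4.05 to 7.33 RPKM. The treated libraries were all higher than the unstimulated ones, 10.5-fold and 10.4-fold for the lower and the higher dose of mIL-21, and 11.9-fold and 7.50-fold for 21h10.

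Ccl3, or MIP-1 alpha, was below unstimulated cells at 100 pM in experiment 1 and above them at both doses of experiment 2. In experiment 1 unstimulated libraries had 2.97 and 3.19 RPKM, mIL-21 1.29 and 0.891 at 100 pM and 2.29 and 2.41 at 1 nM, and 21h10 1.71 and 1.59 at 100 pM and 3.27 and 2.56 at 1 nM. At 100 pM both cytokines lay below unstimulated cells, and at 1 nM of 21h10 the values overlapped with them. The log2 fold change was -1.55 (adjusted p = 8.8e-07) and -0.88 (6.96e-05) at 100 pM of mIL-21 and 21h10. At 1 nM it was -0.34 [-0.69, 0.00] (adjusted p = 0.0636) and -0.01 [-0.34, 0.32] (0.95). The mIL-21 value at 1 nM passed the threshold under 4 other settings, from -0.28 with limma on log2(RPKM + 1) to -0.38 with library sizes from mapped reads. In experiment 2 the unstimulated libraries had 1.66 and 1.70 RPKM against 17.4 and 21.4 at 10 nM and 18.5 and 16.7 at 100 nM of mIL-21. With 21h10 they had 14.5 and 14.4 at 10 nM and 8.35 and 10.4 at 100 nM. The rise was 13.1-fold and 12.2-fold for mIL-21 and 10.4-fold and 6.86-fold for 21h10, all called.

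Ccl5, or RANTES, was the most abundant of the 7 per length in every group. Unstimulated libraries of experiment 1 had 96.1 and 99.6 RPKM, mIL-21 117.7 and 125.4 at 100 pM and 72.2 and 74.9 at 1 nM, and 21h10 74.7 and 75.2 at 100 pM and 65.2 and 69.6 at 1 nM. Only mIL-21 at 100 pM lay above unstimulated cells, and the other 3 treated groups lay below them. The log2 fold change was 0.23 (adjusted p = 0.00166) at 100 pM and -0.37 (2.32e-05) at 1 nM of mIL-21, and -0.36 (2.4e-05) and -0.45 (2.39e-06) for 21h10. In experiment 2, unstimulated libraries had 123.8 and 94.2 RPKM, mIL-21 267.6 and 322.2 at 10 nM and 238.9 and 190.0 at 100 nM, and 21h10 242.8 and 220.6 at 10 nM and 115.5 and 101.9 at 100 nM. The first 3 treated groups were above the unstimulated pair, by 1.62, 1.20 and 1.36 on the log2 scale (mIL-21 10 nM, mIL-21 100 nM and 21h10 10 nM). The 21h10 100 nM libraries lay between the unstimulated ones. There the log2 fold change was 0.30 [0.05, 0.55] (adjusted p = 0.0421) with TMM scaling and -0.0039 with library sizes from mapped reads, a scaling that lowered the median of all genes in that comparison by 0.30. The call was also lost with limma (0.0067), and without unstimulated replicate 2 (0.14), either library of 21h10 10 nM (0.29 for each) or either library of 21h10 100 nM (0.23 and 0.35).

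Xcl1, lymphotactin, fell in every treated group, and in experiment 1 it fell in steps. Its unstimulated libraries had 30.1 and 31.8 RPKM, mIL-21 21.2 and 19.5 at 100 pM and 3.26 and 4.0 at 1 nM, and 21h10 3.44 and 3.58 at 100 pM and 0.676 and 0.869 at 1 nM. Only mIL-21 at 1 nM and 21h10 at 100 pM overlapped. The log2 fold change over unstimulated cells was -0.68 (adjusted p = 1.22e-06) and -3.04 (5.09e-14) for mIL-21, and -3.11 (1.03e-14) and -5.20 (1.18e-15) for 21h10. In experiment 2 the unstimulated libraries had 483 and 437 reads (19.7 and 19.2 RPKM), and the 8 treated libraries had 5 to 17 reads each (0.247 to 0.711 RPKM). Every treated library was far below both unstimulated ones, with log2 fold changes of -5.04 and -4.62 for mIL-21 and -5.04 and -5.05 for 21h10 at 10 and 100 nM. For 21h10 these were -6.02 without 10 nM replicate 2 and -5.86 without 100 nM replicate 2, still called. At so few reads, none of the comparisons made among the 4 treated groups called a further difference.

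Cxcl10 fell in every treated group, from 100 pM on. It had 1319 and 844 reads (10.8 and 11.9 RPKM) in unstimulated cells of experiment 1, 8 and 11 reads at 100 pM and 1 and 3 reads at 1 nM of mIL-21, and 9 and 11 reads at 100 pM and 10 and 9 reads at 1 nM of 21h10. No treated library passed 11 reads. The decrease was 67.3-fold at 100 pM of mIL-21, 105.1-fold at 100 pM of 21h10 and 66.4-fold at 1 nM of 21h10. At 1 nM of mIL-21, with 4 reads in both libraries together, the level per mapped read was 314-fold lower than in unstimulated cells, with an exact interval of 122.4 to 1153 that covers counting error only. The fitted log2 fold change there, -8.20, was -9.06 without mIL-21 1 nM replicate 2. In experiment 2 the unstimulated libraries had 181 and 159 reads (3.37 and 3.18 RPKM). They were 6 and 6 at 10 nM and 13 and 9 at 100 nM of mIL-21, and 19 and 15 at 10 nM and 31 and 30 at 100 nM of 21h10. The treated libraries were all lower, by 27.9-fold and 12.8-fold for mIL-21 and by 7.48-fold and 4.05-fold for 21h10. The decrease was thus smallest at 100 nM of 21h10, at a log2 fold change of -2.02 [-2.71, -1.32] (adjusted p = 1.13e-04).

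Ccl1 was the least abundant. In experiment 1 it had 30 and 34 reads in the unstimulated libraries (0.536 and 1.05 RPKM), 2 and 6 at 100 pM of mIL-21, 0 and 3 at 100 pM of 21h10, and 0 in all 4 libraries at 1 nM. The treated libraries were all below the unstimulated ones. The log2 fold change at 100 pM of mIL-21 was -2.25 (adjusted p = 0.00435), and the call was lost with DESeq2 (-2.29) and without mIL-21 100 pM replicate 1 (-1.53), while without replicate 2 the value was -3.37. At 100 pM of 21h10 the level per mapped read was 21.1-fold lower, with an exact counting interval of 6.90 to 105.0 and an adjusted p of 6.54e-05. All 3 reads there were in replicate 2. The fitted log2 fold change of -4.29 was -3.69 without replicate 1 and -7.51 without replicate 2. Against a floor of 3 reads per library, it was at least 6.72-fold lower at 1 nM of mIL-21 and at least 6.98-fold lower at 1 nM of 21h10. In experiment 2 it had 3 and 1 reads in unstimulated cells and 0 to 2 reads in the treated libraries, and no fold is given.

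The comparison of the cytokines at matched doses asked whether the mimic acted on these genes as native IL-21 did. It was made for 7 genes at each of 2 doses in experiment 1 and for 6 at each of 2 doses in experiment 2. At 100 pM, 5 of 7 chemokines were called (3 higher and 2 lower with 21h10), beside 38.6% of all genes (19.6% higher and 19% lower). At 1 nM, 4 of 7 were called (3 higher and 1 lower), beside 37.7% (19.6% and 18.1%). With 10 nM, edgeR's quasi-likelihood test and DESeq2 each called 0 of 6, beside 0.00726% of all genes by edgeR (1 gene; the unadjusted p was under 0.05 for 1207 genes). With 100 nM, 4 of 6 were called (1 higher and 3 lower), beside 8.53% (4.02% higher and 4.52% lower). The spread between libraries of a group, as fitted by edgeR, was wider in experiment 2 (coefficient of variation 8.796%) than in experiment 1 (4.325%). Shares of genes called are thus not directly comparable between the experiments. At the 2 lower doses, Ccl4 and Ccl9 were higher and Xcl1 lower with 21h10 than with mIL-21. At 100 nM, Ccl3, Ccl4 and Ccl5 were lower and Cxcl10 higher with 21h10.

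**Figure D3:**
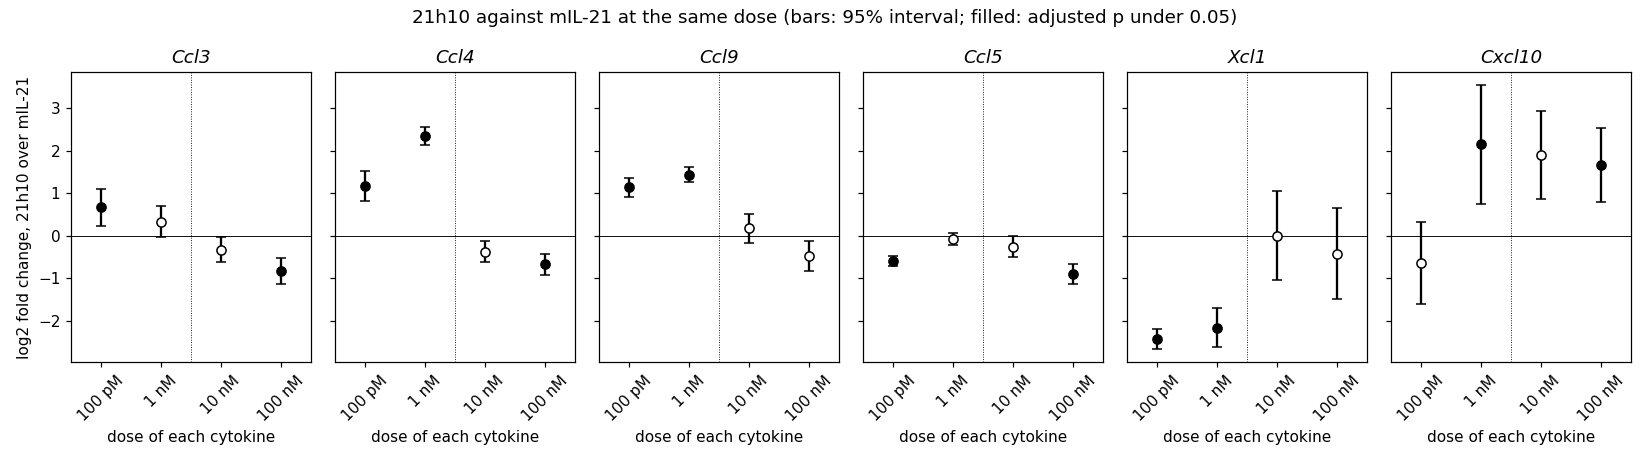
Log2 fold change of 21h10 over mIL-21 at the same dose for 6 chemokines, with 95% intervals; filled points have an adjusted p under 0.05, and the dotted line separates experiment 1 from experiment 2. Ccl4 goes from 1.18 and 2.34 in experiment 1 to -0.38 and -0.67 in experiment 2.

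For Ccl4, the level with 21h10 exceeded that with mIL-21 by 1.18 on the log2 scale at 100 pM (adjusted p = 3.29e-05) and by 2.34 at 1 nM (7.01e-12), or 2.26-fold and 5.08-fold. The gap was wider at 1 nM than at 100 pM by 1.17 [0.72, 1.61] in a test of the difference itself (8.61e-04). At 10 nM the fold change was -0.38 [-0.62, -0.13] (adjusted p = 0.439), and at 100 nM -0.67 [-0.92, -0.43] (0.00181). Intervals are for single genes and are not adjusted, which is why some exclude 0 where the adjusted p does not pass.

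For Ccl9, 21h10 was higher by 1.14 at 100 pM (adjusted p = 1.66e-07) and by 1.44 at 1 nM (4.47e-10). At 10 nM the difference was 0.18 [-0.16, 0.52] (0.762) and the libraries overlapped. At 100 nM it was -0.47 [-0.82, -0.12] (adjusted p = 0.0881), which passed the threshold without the filter (-0.50), with limma (-0.47), in a fit of those 2 groups alone (-0.47), with library sizes from mapped reads (-0.55) and without either unstimulated library (-0.48 for each).

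For Ccl3 the 21h10 level was higher by 0.67 at 100 pM (adjusted p = 0.0178) and by 0.33 [-0.04, 0.70] at 1 nM (0.148). The first call was lost without mIL-21 100 pM replicate 2 (0.45) or 21h10 100 pM replicate 1 (0.59). It was -0.33 [-0.63, -0.04] at 10 nM (0.545) and, lower with 21h10, -0.83 at 100 nM (0.00177). Ccl5 was lower with 21h10 at 100 pM (-0.60, adjusted p = 6.1e-07) and at 100 nM (-0.90, 1.35e-04). Its difference was -0.08 [-0.21, 0.05] at 1 nM (0.347) and -0.26 [-0.50, -0.01] at 10 nM (0.554).

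Xcl1 was lower with 21h10 at 100 pM (log2 fold change -2.43, adjusted p = 2.41e-11) and at 1 nM (-2.16, 3.58e-07), or 5.41-fold and 4.47-fold. In experiment 2 its difference was 0.00 [-1.05, 1.05] at 10 nM (adjusted p = 1) and -0.42 [-1.49, 0.64] at 100 nM (0.66), both on 5 to 17 reads per library and with overlapping libraries. Cxcl10 was higher with 21h10 at 1 nM by 2.15 [0.76, 3.55] (0.0161) and at 100 nM by 1.66 [0.79, 2.53] (0.0193). It differed by -0.64 [-1.60, 0.31] at 100 pM (0.282) and by 1.90 [0.87, 2.93] at 10 nM (0.413). These Cxcl10 values rest on 1 to 31 reads per library. The 1 nM call was lost with limma (0.17), without mIL-21 1 nM replicate 1 (1.68) and without 21h10 1 nM replicate 1 (1.85), and the value was 3.0 without mIL-21 1 nM replicate 2. The 100 nM call was lost in a fit of the 2 groups alone (1.67) and without any one library of either group (1.48 to 1.86). For Ccl1 the reads at 100 pM gave a 4.72-fold lower level with 21h10, with an exact counting interval of 1.13 to 27.6 and an adjusted p of 0.177.

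When 100 pM of 21h10 was set beside 1 nM of mIL-21, 1 of 7 chemokines was called, beside 0.737% of all genes (0.157% higher and 0.58% lower with 21h10). That gene was Ccl4, lower with 100 pM of 21h10, at a log2 fold change of -1.26 [-1.52, -1.01] (adjusted p = 3.19e-05). Ccl5 differed by 0.01 [-0.12, 0.14] (0.976) and Xcl1 by -0.08 [-0.38, 0.23] (0.909), and the libraries of both overlapped. Ccl9 differed by -0.34 [-0.52, -0.15] (0.119), Ccl3 by -0.54 [-0.92, -0.16] (0.278) and Cxcl10 by 1.49 [0.06, 2.91] (0.474), each without overlap of the libraries. An adjusted p over the threshold does not show that the levels were equal.

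Raising mIL-21 from 100 pM to 1 nM changed 6 of 7 chemokines, beside 34.5% of all genes. The 3 that rose, beside 17.9% of all genes, were Ccl3 (log2 fold change 1.20), Ccl4 (2.44) and Ccl9 (1.47), and the 3 that fell, beside 16.6%, were Ccl5 (-0.61), Xcl1 (-2.36) and Cxcl10 (-2.13). The Cxcl10 call was lost with limma (-0.19), without mIL-21 1 nM replicate 1 (-1.66) and without mIL-21 100 pM replicate 2 (-1.74), and the value was -2.98 without mIL-21 1 nM replicate 2. Ccl1, with 2 and 6 reads against 0 and 0, was not called (adjusted p = 0.0673), but passed without the filter (0.0357) and with library sizes from mapped reads (0.0325). Raising 21h10 over the same doses changed 4 of 7, beside 39.2%. The 3 that rose, beside 20.1%, were Ccl3 (0.87), Ccl4 (3.61) and Ccl9 (1.77), and the 1 that fell, beside 19.1%, was Xcl1 (-2.09). Ccl5 moved by -0.09 [-0.22, 0.04] (adjusted p = 0.269) and Cxcl10 by 0.66 [-0.29, 1.62] (0.271). Tested as a difference between the doses, the gap between 21h10 and mIL-21 changed for 3 of 7, all upward, beside 18.4% of all genes (8.34% upward and 10% downward). These were Ccl4 (above), Ccl5 (0.52 [0.33, 0.70], adjusted p = 4.82e-04) and Cxcl10 (2.80 [1.09, 4.50], 0.0223). The Cxcl10 value lost its call with limma (0.26), in a fit of the groups compared (2.79), and without mIL-21 1 nM replicate 1 (2.33), mIL-21 100 pM replicate 2 (2.41), 21h10 1 nM replicate 1 (2.49) or 21h10 100 pM replicate 2 (2.48), and was 3.65 without mIL-21 1 nM replicate 2. With limma the gap also passed for Xcl1 (0.86, limma's adjusted p = 3.85e-04) and Ccl9 (0.51, 0.00327), which edgeR gave as 0.27 [-0.30, 0.84] (adjusted p = 0.543) and 0.30 [0.02, 0.58] (0.141).

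From 10 to 100 nM of mIL-21, edgeR's quasi-likelihood test called 0 of 6 chemokines and 0 of all genes (0% called), while 361 genes had an unadjusted p under 0.05 and 14 were called without the filter. DESeq2 called 0 of the 6 and 0 of all genes. From 10 to 100 nM of 21h10, 4 of 6 fell, beside 5.33% of all genes in either direction and 3.45% downward. The log2 fold change was -1.06 for Ccl5 (adjusted p = 3.81e-05), -0.66 for Ccl9 (0.026), -0.60 for Ccl3 (0.0237) and -0.48 for Ccl4 (0.0238), the last not called with limma (-0.50). Without either 21h10 10 nM library or either 21h10 100 nM library the number called was 1 or 2, and Ccl5 was called each time. The gap between 21h10 and mIL-21 did not pass for any of the 6 between these doses, beside 0.922% of all genes (the unadjusted p was under 0.05 for 1096). DESeq2 called 1 of them, Ccl5 at -0.64, where edgeR's adjusted p was 0.0824 at -0.65 [-0.99, -0.30].

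The makeup of the chemokine RNA, as shares of the summed RPKM of the 7 genes, shifted with the cytokines. Unstimulated cells of experiment 1 had a mean of 66.3% Ccl5, 21.0% Xcl1, 7.71% Cxcl10 and 1.46% Ccl4, of a sum of 147.5 ± 5.37 RPKM (SD, n = 2). At 1 nM of 21h10, Ccl5 made up 60.9%, Ccl4 29.1%, Ccl9 6.50% and Xcl1 0.699%, of a sum of 110.7 ± 0.720 RPKM. Between these groups the shares of Ccl4 and Xcl1 thus differed by a larger factor than the sum did. In experiment 2 unstimulated cells had 80.3% Ccl5, 14.5% Xcl1 and 0.873% Ccl4 of 135.4 ± 21.5 RPKM, and cells with 10 nM of mIL-21 75.6% Ccl5, 17.5% Ccl4 and 0.131% Xcl1 of 389.6 ± 47.6 RPKM. The sum was 158.0 ± 7.87 RPKM at 100 nM of 21h10, the lowest of the 4 treated groups, with a Ccl4 share of 21.8%. Shares and sums were described and not tested.

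**Figure D4:**
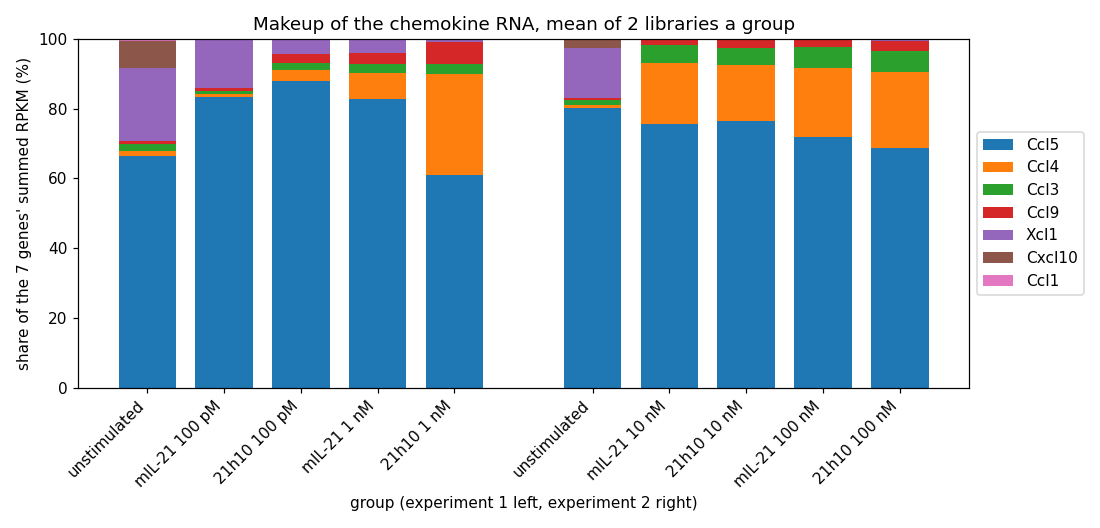
Share of each chemokine in the summed RPKM of the 7 genes (%), mean of 2 libraries a group, with experiment 1 left and experiment 2 right. Ccl5 makes up most in every group, Xcl1 and Cxcl10 are visible mainly in unstimulated cells, and Ccl4 reaches 29.1% at 1 nM of 21h10.

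The reads also covered receptors of these chemokines. The 5 looked at (Ccr1, Ccr3, Ccr8, Cxcr3 and Xcr1) were all tested, and 21h10 against mIL-21 called 3 of them at 100 pM and 3 at 1 nM (1 higher and 2 lower each time), 0 at 10 nM and 1 at 100 nM, beside 38.6%, 37.7%, 0.00726% and 8.53% of all genes. Their median log2 fold change was 0.34 at 100 pM, -0.28 at 1 nM, -0.16 at 10 nM and 0.16 at 100 nM, beside medians of -0.01, -0.01, 0.00 and 0.00 over all genes.

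Cxcr3, the receptor of Cxcl10, was at 25.5 and 26.9 RPKM in unstimulated cells of experiment 1, 32.9 and 32.4 at 100 pM and 11.1 and 10.9 at 1 nM of mIL-21, and 11.7 and 11.5 at 100 pM and 4.70 and 3.91 at 1 nM of 21h10. It was lower with 21h10 than with mIL-21 at 100 pM (-1.39, adjusted p = 4.47e-11), 1 nM (-1.32, 8.07e-10) and 100 nM (-0.80, 5.69e-05), and differed by -0.21 at 10 nM (0.554). Between 10 and 100 nM, the difference itself moved by -0.59 (adjusted p = 0.0437). At 1 nM and 100 nM, Cxcr3 was thus lower and Cxcl10 higher with 21h10 than with mIL-21. Both Cxcl10 calls rest on few reads and were lost when certain single libraries were left out, as given above. Ccr8, the receptor of Ccl1, fell from 4.31 and 5.21 RPKM in unstimulated cells to 1.56 and 1.79 with mIL-21 and 0.646 and 0.897 with 21h10 at 100 pM, where 21h10 was lower than mIL-21 (-0.97, adjusted p = 5.1e-04). In the treated libraries at 1 nM it was under 1 RPKM. In experiment 2, the unstimulated libraries had 1.03 and 0.705 RPKM and the treated ones 0.0173 to 0.375 RPKM.

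**Figure D5:**
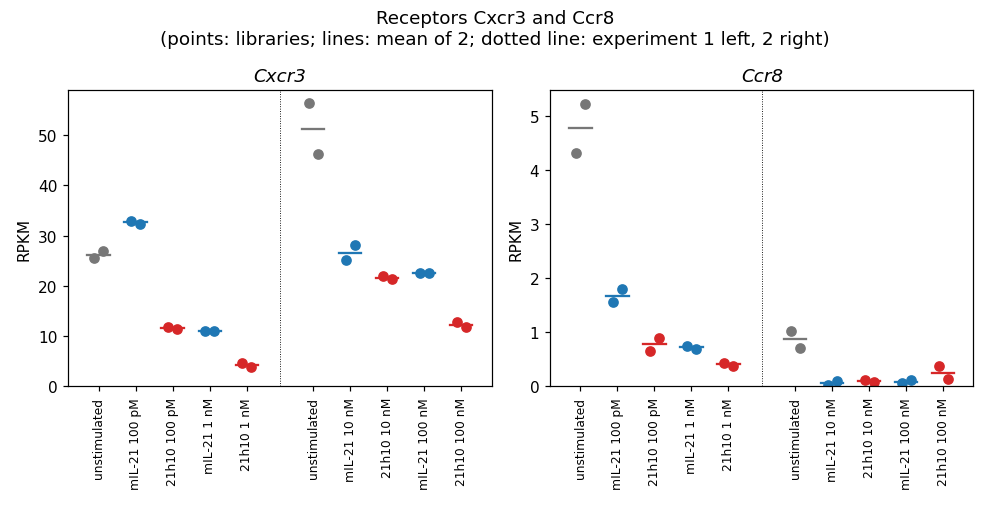
RPKM of Cxcr3 and Ccr8 in each library (grey unstimulated, blue mIL-21, red 21h10; lines are means of 2), with experiment 1 left and experiment 2 right of the dotted line. Ccr8 is below its unstimulated level in all 16 treated libraries, and Cxcr3 is lowest in each experiment at the higher dose of 21h10.

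Across the 20 libraries, each centred on the mean of its experiment, the log2 library-scaled read counts of Ccl4 and Ccl9 correlated at a Pearson r of 0.975, those of Ccl3 and Ccl4 at 0.879, and those of Xcl1 and Ccl9 at -0.935. These correlations are descriptions over libraries that share groups, cultures and depth. Among 11257 genes tested in both experiments and reaching 1 RPKM in some group, those most like Ccl4 were Mgll (r = 0.984) and Il1r1 (0.982), and those most like Ccl9 were Elovl6 (0.985) and Il1r1 (0.984). Ccl3 was closest to Pmaip1 (0.962) and Nras (0.961), and Ccl5 to Atxn1l (0.931) and Mllt6 (0.927). Xcl1 was closest to A930006K02Rik (0.982) and Gypc (0.978), and Cxcl10 to Orc1 (0.979) and Chaf1a (0.976).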

How the data were processed

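RNA was sequenced from 20 libraries, 2 per group. Per the labels and the study's methods, the authors mapped reads to mm10 (GRCm38) with TopHat2 2.0.11 and Bowtie2 2.2.6, and counted reads on exons; the use of strand and the annotation version are not given in the sources used here. The deposited count per RefSeq transcript is a whole number, not normalized, and the deposited RPKM divides it by length and mapped reads. Each symbol was taken from its longest transcript.

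Counts of each experiment's 10 libraries were fitted together with edgeR 4.0.16 in R 4.3.3 (filterByExpr with a least count of 10 and least total of 15, TMM, glmQLFit and glmQLFTest, group only), which was tested on simulated data first. P-values were Benjamini-Hochberg adjusted over all genes tested, with a threshold of 0.05. With 2 libraries against 2, no single-gene permutation test could pass it. Alternatives were DESeq2 1.42.0, no filter, limma 3.58.1 on log2(RPKM + 1), the compared groups alone, a replicate block, library sizes from mapped reads, the transcript with most reads, and leaving out each library. Exact binomial intervals and the floor of 3 reads per library cover counting error only. Genes matching the pattern of a chemokine were the 2 with the highest r; chemokine ligands and receptors beside the 7 were named when past the threshold at a matched dose with 1 RPKM or more in the higher group. Some listed genes are not reported here. The members and lists were chosen with earlier results of these data known. Experiments were normalized separately and tested only within themselves. The labels' names for the cytokines, WT and h10, were read as mIL-21 and 21h10.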

Additional observations from a re-analysis of the deposited data

Results flagged for a closer look

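In experiment 1 the difference between 21h10 and mIL-21 itself differed between 100 pM and 1 nM for 3 chemokines, by edgeR's test of that difference: Ccl4 by 1.17, Ccl5 by 0.52 and Cxcl10 by 2.80 on the log2 scale, the last on few reads.

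Other effects had opposite signs in experiment 1 and experiment 2, with both called and no overlap of libraries in either. Only the lower doses of each experiment (100 pM and 10 nM) and the higher doses (1 nM and 100 nM) were paired. Other pairings also held opposite signs and are not listed in full, as for Ccl3 with 21h10 against mIL-21 at 100 pM (0.67) and 100 nM (-0.83). These differences were not tested, and dose range and experiment cannot be told apart. Ccl4 was higher with 21h10 than with mIL-21 at 1 nM (2.34) and lower at 100 nM (-0.67). Relative to unstimulated cells, 100 pM and 10 nM of mIL-21 gave -1.55 and 3.71 for Ccl3, -0.79 and 5.99 for Ccl4, and -0.35 and 3.39 for Ccl9. The same doses of 21h10 gave -0.88 and 3.38 for Ccl3 and -0.36 and 1.36 for Ccl5. For Ccl5, 1 nM and 100 nM of mIL-21 gave -0.37 and 1.20.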

How the results depend on the processing

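Counts of chemokines past the threshold stayed within 1.5 times the reported ones in 128 of 133 recomputations other than leaving out a library. The exceptions were 1 in place of 0 for 21h10 against mIL-21 at 10 nM and for mIL-21 at 100 against 10 nM (both without the filter), and, for the change in the gap between 10 and 100 nM, 1 (DESeq2), 2 (no filter) and 2 (compared groups alone) in place of 0. Leaving out libraries gave 1 to 4 for 21h10 at 100 against 10 nM (4 reported) and 0 to 2 for the change in the gap (0 reported); there it was leaving out either unstimulated library that gave 2. Of the values of single genes past the threshold, 1 reversed, Ccl5 at 100 nM of 21h10 against unstimulated cells (-0.0039 with mapped-read library sizes). The cause was not tested. Among values not past the threshold, the sign changed in 37 recomputations, as for Xcl1 and Cxcl10 in experiment 2.

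The labels do not say whether duplicate numbers pair the libraries. Deviations of same-numbered libraries correlated at -0.062 to 0.029 in experiment 1 and -0.17 to 0.23 in experiment 2, which does not settle it. With the replicate block the counts of chemokines were as reported in 18 of 19 comparisons (5 at 100 pM and 4 at 1 nM for 21h10 against mIL-21), and 7 in place of 6 for mIL-21 at 1 nM against 100 pM, where Ccl1 passed (edgeR's adjusted p = 0.0366).

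Counts over all genes moved by more than 1.5 times in some settings. At 10 nM, 1 gene became 179 without the filter, 11 with DESeq2 and 4 with the block, and the compared groups alone called a number equal to 1.04% of the 13772 genes tested. At 100 nM, 1175 became 2026 with the compared groups alone. For 100 pM of 21h10 against 1 nM of mIL-21, 103 became 195 without the filter and 41 with limma. For 21h10 at 100 against 10 nM, 734 became 1150 (no filter), 409 (limma) and 1553 (compared groups alone), and for the change in the gap 127 became 219 (DESeq2), 257, 63 and 265 in the same order. Leaving out 1 library gave 372 to 1928 at 100 nM, 31 to 199 for 100 pM against 1 nM, 254 to 1288 for the 21h10 step and 45 to 269 for the change in the gap. Library sizes from mapped reads moved the median of all genes by -0.18 to -0.30 against unstimulated cells in experiment 2. In experiment 1 the shifts against unstimulated cells ran from -0.083 to 0.080. The largest shift in any comparison there was -0.12, for mIL-21 at 1 nM against 100 pM. Depth limits Cxcl10 in the treated groups, Xcl1 in those of experiment 2 and at 1 nM of 21h10, and Ccl1 throughout.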

Other observations

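Beside the 7 genes, 31 other chemokine ligands were looked up, and 8 had enough reads to be tested. Ppbp, known as a platelet chemokine, was the 1 of them called between the cytokines, at 100 pM, where it had a mean of 0.655 ± 0.133 RPKM with 21h10 and 1.26 ± 0.142 RPKM with mIL-21 (SD, n = 2; log2 difference -0.89, adjusted p = 0.00636 by edgeR's quasi-likelihood test). So 1 of the 8 was called at 100 pM, beside 38.6% of all genes in either direction and 19% downward. None of the 8 was called at 1 nM, 10 nM or 100 nM, beside 37.7%, 0.00726% and 8.53% of all genes. The median log2 fold change of the 8 was -0.26, 0.11, -0.27 and -0.50 at these 4 doses in rising order, beside -0.01, -0.01, 0.00 and 0.00 over all genes.

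Of the 9 genes annotated by RefSeq from Ccl5 to Ccl4 on chromosome 11, 6 were in the tables. Beside Ccl3, Ccl4, Ccl5 and Ccl9 these were Ccl6, with at most 63 reads (0.921 RPKM), and the long non-coding RNA E230016K23Rik, at 0.625 to 6.26 RPKM.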
